A study of Drosophila melanogaster with 4 samples.

Results

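Isolated clusters of RNA polymerase II phosphorylated at serine 2 were examined in Kc167 cells. They are regions of significant Ser2P enrichment that stand alone, with at least 15 kb free of any other enriched region on each side. The members were chosen by position and width from the combined set, the list of regions deposited for the series as a whole. They are enriched regions (clusters) on the arms 2L, 3L and 3R that are under 10000 bp wide and have 15000 bp or more of sequence to the nearest cluster on both sides. The rule found 380 isolated clusters among the 5566 clusters of the combined set. They were compared with the other 2380 clusters under 10000 bp on these arms. The first or last cluster of an arm has a neighbour on one side alone, and 6 clusters under 10000 bp were left out of both groups for this reason.

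Kc167 is a female line derived from late embryos of Drosophila melanogaster, with the genotype given as se/e. The series holds 2 ChIP libraries, made with the rabbit polyclonal antibody ab5095 against serine 2 phosphorylation of the C-terminal repeat, and 2 libraries of input DNA. All come from this line and the labels name no treatment, so the design has no second condition. The input libraries were not analysed here. Whether the ChIP replicates came from separate cultures is not stated, and their spread may therefore be technical. The regions carry no read counts, and the depth of sequencing is unknown.

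The C-terminal domain of the largest polymerase subunit is a long array of a short repeat whose serines are phosphorylated in turn during transcription. Serine 2 is phosphorylated by the kinases Cdk9, a part of P-TEFb, and Cdk12 after the polymerase has left the promoter-proximal pause, and the mark is strongest over gene bodies and toward their 3′ ends. Ser2P clusters therefore serve as a map of elongating polymerase. Fly genes are compact and many lie close together, so clusters of neighbouring genes often lie near each other or merge. Kc167 cells are widely used as a model of fly blood cells and of the response to ecdysone. The clusters are placed on release 5 of the genome and the available gene list on release 6, so the clusters are given by position, without gene names or sequence.

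Isolated clusters were few and small, and the long free stretches that the rule asks for made up much of the empty sequence. They made up 13.8% of the clusters under 10 kb on the 3 arms (95% exact interval 12.5 to 15.1), at 5.04 per Mb, against 31.5 per Mb for the other clusters. The arms carried similar shares, with 119 isolated clusters and 715 others on 2L, 132 and 817 on 3L, and 129 and 848 on 3R. All 380 together covered 1202 kb. The cluster-free stretches that flank them numbered 608, counting a stretch between adjacent isolated clusters once, and added up to 34.2 Mb. That was 56.3% of all sequence between clusters on these arms. The rule selects for long stretches on both sides, so this share is given as a description. The share was 59.4% on 2L, 58.7% on 3L and 51.7% on 3R.

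The distance from an isolated cluster to its nearest neighbour had a median of 27015 bp, with a middle range of 19664 to 40573 bp. The distance on the farther side had a median of 57822 bp and reached 326648 bp. At least 50 kb was free on both sides of 71 isolated clusters, and at least 100 kb on both sides of 8. A further view of long empty stretches is that 98 of the 380 bordered one of 100 kb or more on at least one side. Among the other clusters the nearest neighbour lay at a median of 1723.5 bp. These distances follow from the rule and are given as a description.

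The strongest isolated clusters found in both libraries were each listed as a single cluster by both. The score is the authors' own value per region, positive for enrichment, on a scale that no header or label used here explains. It is used here to describe and rank regions. The highest score among isolated clusters that overlap both replicates belonged to 3L from 20941490 to 20944264. Its score was 3.50 in replicate 1 and 3.46 in replicate 2, against 3.47 for the combined region, and it was 2775 bp wide with 55.6 kb free on its nearer side. The second, on 2L from 13058942 to 13061551, scored 3.38 in replicate 1 and 3.43 in replicate 2, with 22.0 kb free on the nearer side. Between the replicates, the start and end of the first differed by 0 and 37 bp, and those of the second by 2 and 40 bp.

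The third lay on 2L from 14489343 to 14491879, with scores of 3.00 in replicate 1 and 3.30 in replicate 2. The fourth, on 3L from 13219834 to 13222960, scored 3.16 and 3.13 in replicates 1 and 2 and stood 125.8 kb from its nearer neighbour. The fifth was also on 3L, from 21373997 to 21376794, and scored 3.06 in replicate 1 and 3.11 in replicate 2. These 5 clusters measured 2537 to 3127 bp, against a median of 2555 bp for isolated clusters in both replicates. Neither library split any of the 5. High scores thus occurred both in moderately open sequence and in the emptiest stretches of the arms.

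**Figure D1:**
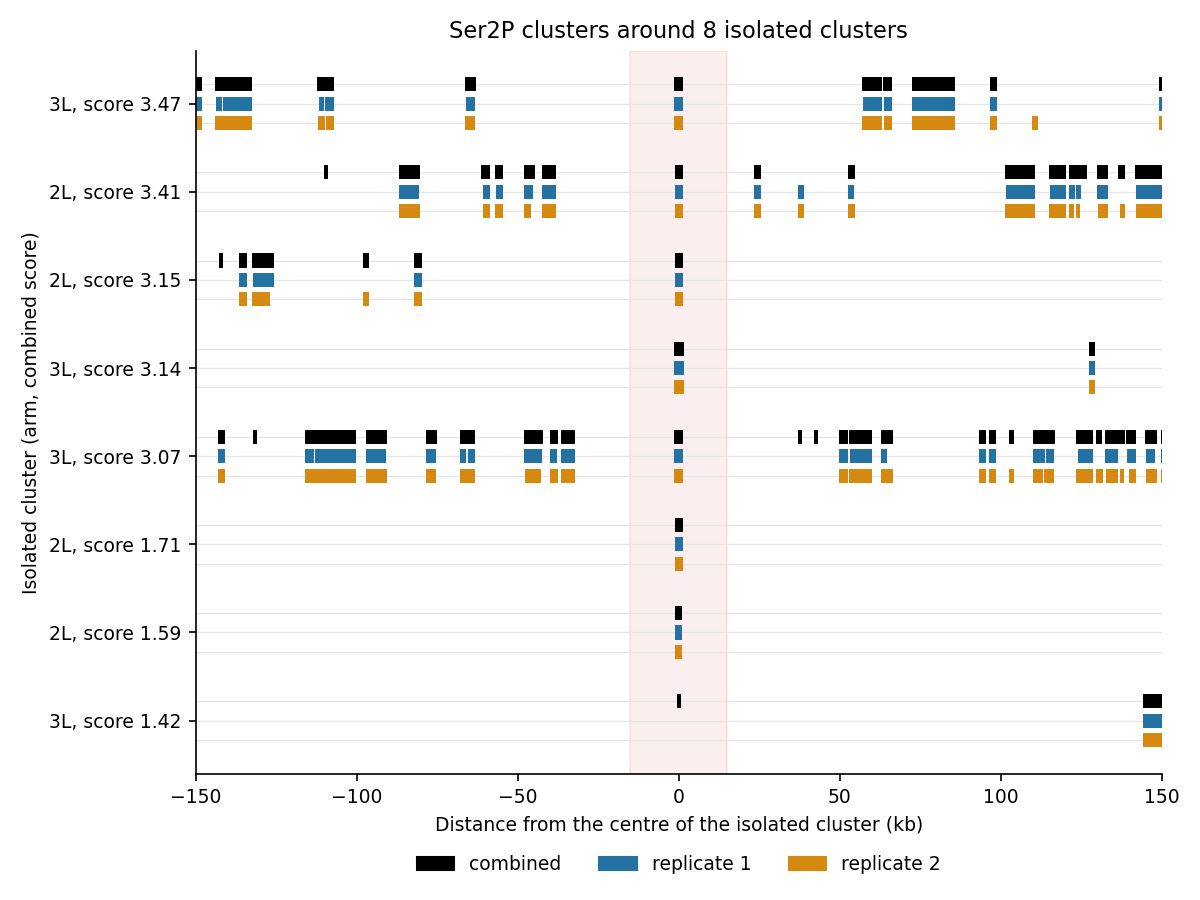
Clusters of the combined set (black), replicate 1 (blue) and replicate 2 (orange) drawn as bars against the distance in kb from the centre of 8 isolated clusters, which are the 5 highest-scoring ones found in both replicates and 3 of those farthest from a neighbour; the shaded band spans 15 kb to each side of the centre. Both replicates list a bar at the centre in 7 of the 8 rows, and the cluster of score 1.42 on 3L has one in the combined set alone.

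The cluster farthest from any neighbour lay on 2L from 14687993 to 14690614. It had 196.1 kb free before it and 304.0 kb after it, and scored 1.72 in replicate 1 and 1.71 in replicate 2. The neighbour on its nearer side was the 2L cluster of combined score 3.15 named above, itself isolated. Next came 2L from 1419312 to 1421508, 2197 bp wide, with 189.0 kb free on the nearer side and scores of 1.76 and 1.43 in replicates 1 and 2. A cluster of 2228 bp on 3L, from 4975246 to 4977473, had 126.6 kb free and scores of 1.69 and 1.86.

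One of the 5 most distant clusters had no counterpart in the replicates. It lay on 3L from 24384611 to 24385892, at the centromeric end of the arm, measured 1282 bp and scored 1.42 in the combined set. The last of the 5 was the 3L cluster of combined score 3.14 described among the strongest.

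Both libraries listed each of the 5 widest isolated clusters in the same number of pieces, but not all of them as 1 piece. On 3L, the cluster from 22937396 to 22947385 was 9990 bp wide and appeared as 1 cluster in each replicate, with scores of 1.62 and 1.70. On 3R, the one from 22078781 to 22088216 measured 9436 bp, was likewise a single cluster, and scored 1.98 in replicate 1 and 2.14 in replicate 2. The other 3 of the 5 widest were listed in 2 pieces by each replicate. They were 2L from 6556876 to 6566854, 3L from 2257000 to 2266856, and 3R from 26705925 to 26715700, of which replicate 1 covered 69.2% and replicate 2 covered 90.2%.

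Near the limit of distance, the closest 3 isolated clusters had 15010, 15103 and 15103 bp free on the nearer side and combined scores of 1.24, 0.57 and 1.38. Just outside the limit, the 3 nearest clusters had 14931, 14930 and 14913 bp free and scores of 2.01, 0.42 and 1.56. All 6 overlapped both replicates. Near the limit of width, the 3 widest isolated clusters measured 9990, 9979 and 9857 bp. A further 11 clusters of 10000 bp or more had 15000 bp free on both sides, and the narrowest 3 of them measured 10629, 10941 and 11286 bp. The limits therefore cut through a continuous range of distances and widths.

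Both libraries supported most isolated clusters. A cluster was counted as supported when it overlapped an enriched cluster of a replicate by at least 1 bp. Replicate 1 held 340 of the 380 and replicate 2 held 339, and 331 were in both. That was 87.1% (95% exact interval 83.3 to 90.3) of isolated clusters, against 1874 of 2380 other clusters, 78.7% (77.0 to 80.4). The same share was 79.9% over all clusters under 10 kb on these arms, and 82.0% when wider clusters were included. The intervals cover counting error over clusters and treat clusters as independent. The combined set comes from the same libraries that give the overlap, so the shares are given without a test.

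Per replicate, 89.3% ± 0.19 of isolated clusters and 82.9% ± 1.25 of the other clusters had a counterpart (mean ± SD, n = 2). The difference was 7.41 percentage points in replicate 1 and 5.39 in replicate 2, a mean of 6.40 ± 1.43. It was larger than the spread between the replicates and had the same sign in both. That spread compares 2 libraries that also made the combined set, so it does not measure the sampling error of the difference. By arm, the share in both replicates was 86.6% of isolated and 76.9% of other clusters on 2L, 89.4% and 78.3% on 3L, and 85.3% and 80.7% on 3R.

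Support went with width and score, and the gap between the groups was widest among narrow and weak clusters. No cluster under 1300 bp overlapped both replicates in either group, with 21 isolated and 181 other clusters of that size. The smallest cluster a replicate listed was 1301 bp in replicate 1 and 1303 bp in replicate 2. Among clusters of 1300 bp or more, 92.2% of 359 isolated and 85.2% of 2199 other clusters were in both replicates. Between 1300 and 2000 bp, 42 of 67 isolated clusters overlapped both replicates (62.7%, 95% exact interval 50.0 to 74.2), against 123 of 397 others (31.0%, 26.5 to 35.8). From 2000 to 3000 bp the shares were 98.1% of 161 isolated and 94.3% of 738 other clusters. Each class includes its lower limit and not its upper one. All 71 isolated clusters from 3000 to 5000 bp and all 60 wider ones were in both replicates, as were 98.4% of the other clusters from 3000 to 5000 bp and all others of 5000 bp or more.

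Sorted by combined score into 4 classes of equal size over all clusters under 10 kb, the lowest class showed the same gap. In it, 51 of 83 isolated clusters overlapped both replicates (61.4%, 50.1 to 71.9), against 224 of 607 others (36.9%, 33.1 to 40.9). In class 2 the shares were 88.75% of isolated and 88.69% of other clusters, in class 3 they were 95.7% and 95.8%, and in the highest 96.8% and 94.9%. The difference between the groups was not tested across classes. When the other clusters were weighted to the widths of the isolated ones, their share was 79.6%, and the isolated clusters stood 7.52 percentage points above it. Weighted to the score classes, it was 81.1%, with a difference of 5.97 points.

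**Figure D2:**
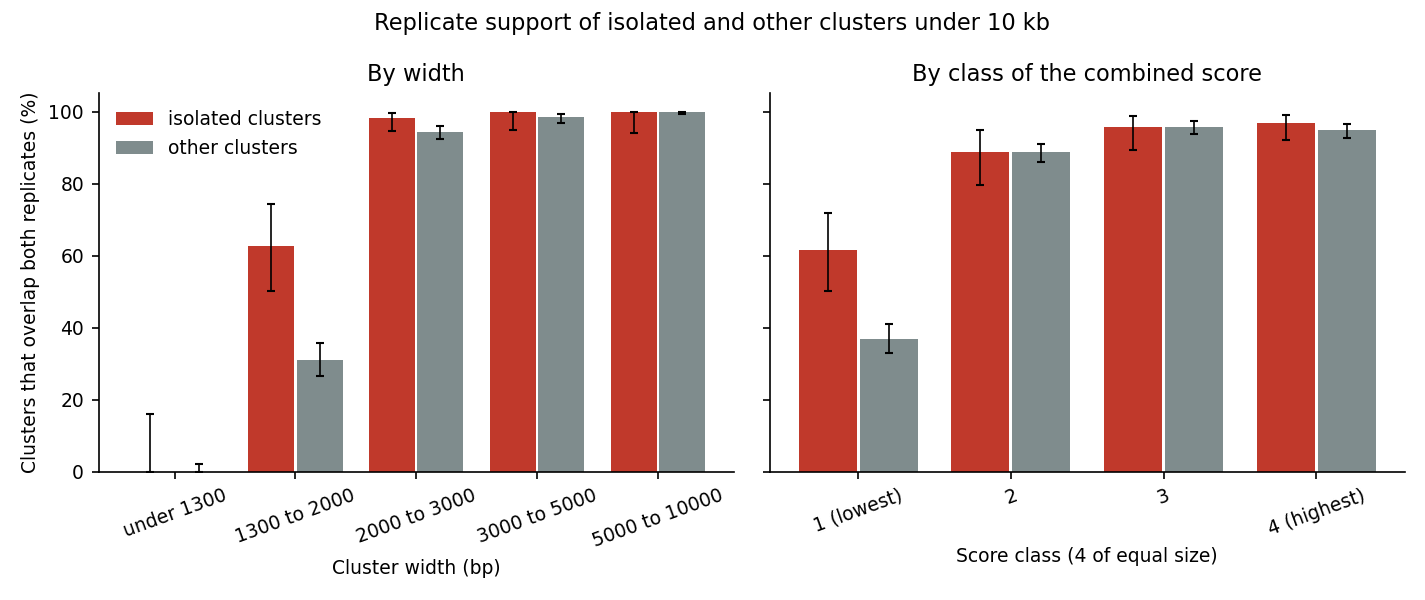
Share of clusters (in %) that overlap both replicates, for isolated (red) and other (grey) clusters under 10 kb, by width in bp on the left and by class of the combined score on the right (4 classes of equal size); error bars are 95% exact intervals. From 1300 to 2000 bp the bars stand at 62.7% and 31.0%, and in the lowest score class at 61.4% and 36.9%, whereas in the other score classes they lie within 2 percentage points of each other.

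The unsupported members were small. There were 32 isolated clusters in neither replicate (8.42%, 95% exact interval 5.83 to 11.7), against 306 of the other clusters (12.9%, 11.5 to 14.3). Of the 32, 21 were under 1300 bp and none exceeded 2452 bp. Their median combined score was 0.34, but 8 scored above the median of the other clusters. The 3 highest were 3R from 26511599 to 26512599, scoring 3.15, 3R from 10006685 to 10007686 with 2.57, and 2L from 8600239 to 8601546 with 1.86. They measured 1001, 1002 and 1308 bp. A further 9 isolated clusters (2.37%) were in replicate 1 alone and 8 (2.11%) in replicate 2 alone, with combined scores up to 0.75 and 0.54. Among the other clusters, 79 (3.32%) were in replicate 1 alone and 121 (5.08%) in replicate 2 alone, with combined scores up to 1.79 and 1.76.

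Isolated clusters had a higher median score and a smaller median width than the others. The median combined score was 1.06 in isolated clusters, with a middle range of 0.47 to 1.69, and 0.87 in the other clusters, with a middle range of 0.43 to 1.44. In the replicates, the median of the overlapping clusters was 1.18 for isolated and 1.04 for other clusters in replicate 1, and 1.16 and 1.05 in replicate 2. The difference of the medians averaged 0.12 ± 0.02 (SD, n = 2). The difference of the combined medians was 0.19. It was 0.061 when the rule was applied anew to the better-scoring 50% of the combined set alone. Weaker neighbours then no longer counted, and the groups held 438 isolated and 805 other clusters. Among clusters in both replicates, the combined medians were 1.17 for isolated and 1.04 for other clusters.

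The median width was 2358 bp for isolated and 2723.5 bp for other clusters, and among those in both replicates it was 2555 and 3317 bp. With a width limit of 5000 bp the medians were close, at 2223 and 2271 bp. Since wider clusters had higher scores (Spearman correlation across clusters of 0.57 in isolated and 0.60 in other clusters), scores were also set side by side within width classes. From 2000 to 3000 bp the median replicate score was 1.18 ± 0.01 in isolated and 0.86 ± 0.02 in other clusters (SD, n = 2). From 3000 to 5000 bp it was 1.47 ± 0.03 in isolated and 1.12 ± 0.04 in other clusters. In the widest class, from 5000 to 10000 bp, the values were closer, at 1.42 ± 0.02 in isolated and 1.358 ± 0.002 in other clusters. The narrowest class with replicate values, from 1300 to 2000 bp, had the opposite order, with 0.322 ± 0.008 in isolated and 0.36 ± 0.01 in other clusters. Under 1300 bp no cluster was in both replicates, and the combined median was 0.42 in isolated and 0.38 in other clusters.

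Support, score and width were then followed over distance to the nearest cluster. The share in both replicates was 75.8% of 906 clusters with a neighbour under 1 kb away, 79.9% of 1012 at 1 to 5 kb, 81.8% of 462 at 5 to 15 kb, and 87.1% at 15 kb or more. The median combined score was 0.78, 0.93, 0.89 and 1.06 in the same order, so it did not climb at every step. The median width was 2815, 2732.5, 2463.5 and 2358 bp. Within the isolated group support did not keep climbing. It was 93.3% of 105 clusters at 15 to 20 kb, 85.7% of 112 at 20 to 30 kb, 91.3% of 92 at 30 to 50 kb, 74.6% of 63 at 50 to 100 kb, and 6 of 8 beyond.

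**Figure D3:**
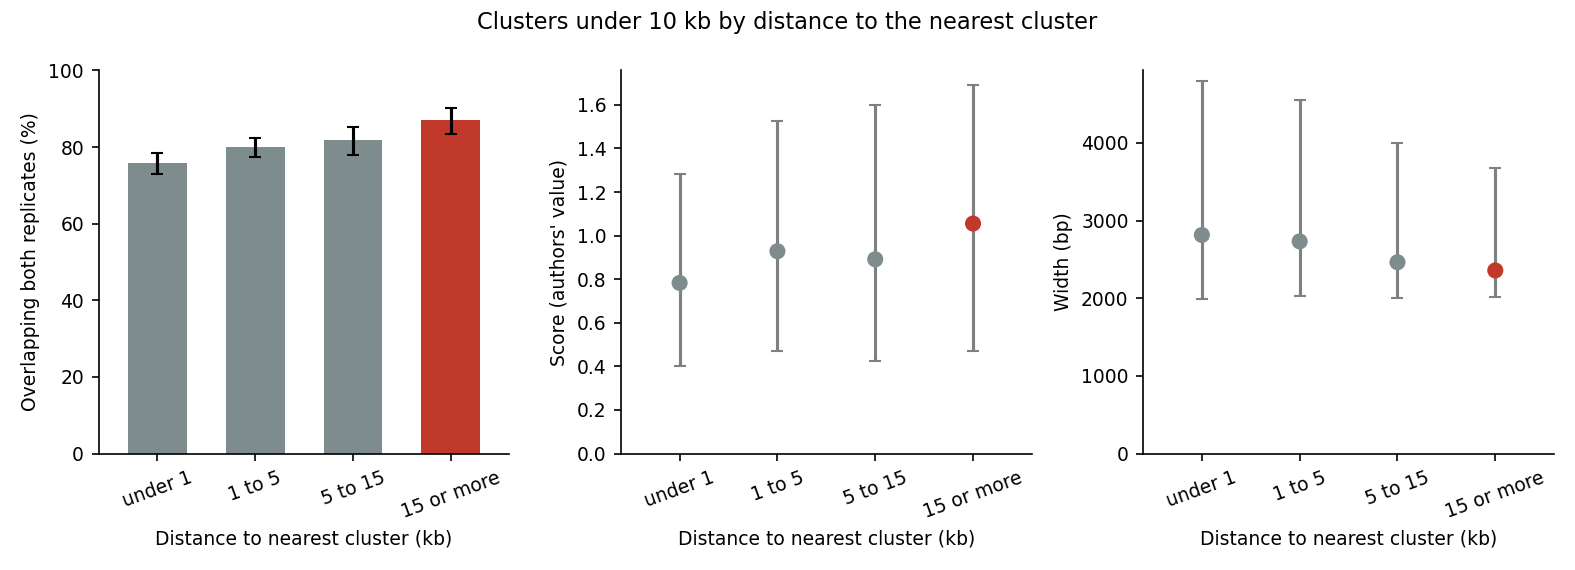
Clusters under 10 kb by distance to the nearest cluster in kb, with the isolated clusters in red: the share in both replicates (in %, bars, with 95% exact intervals), the combined score (authors' value) and the width in bp (points are medians, lines the middle range). The share runs from 75.8% to 87.1% and the median width from 2815 to 2358 bp as the distance grows.

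Where both libraries found an isolated cluster, each mostly listed it as a single cluster. Of the 331 in both replicates, 317 matched one to one, meaning that a single replicate cluster overlapped the combined cluster and no other (95.8%, 95% exact interval 93.0 to 97.7). Among the other clusters 1707 of 1874 did so (91.1%, 89.7 to 92.3), and over all clusters under 10 kb the share was 91.8%. The rule keeps every other combined cluster at least 15 kb from a member, so these shares are not independent of the rule. From 2000 to 3000 bp, 158 of 158 isolated and 693 of 696 other clusters in both replicates matched one to one. From 5000 to 10000 bp, 47 of 60 and 382 of 515 did so. Of the 331 isolated clusters in both, replicate 1 split 14 into several pieces and replicate 2 split 7. Of the 1874 others in both, replicate 1 split 113 and replicate 2 split 94.

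The edges of most matched isolated clusters moved little. The start and the end each differed by a median of 27 bp between the replicates, against 45 and 44 bp in the other clusters. The 90th percentile was 186 bp for the start and 185 bp for the end, against 296 and 280 bp in the other clusters. The largest shifts were 1785 and 1791 bp in isolated clusters, and 3498 and 2289 bp in the others. Both edges lay within 100 bp in 227 of 317 isolated clusters (71.6%) and in 912 of 1707 others (53.4%), with 56.3% over both groups. Within the class from 2000 to 3000 bp the shares were 85.4% of isolated and 68.1% of other clusters, and from 1300 to 2000 bp they were 66.7% and 42.3%. The isolated group had the higher share in the 2 wider classes as well, at 55.7% against 43.4% from 3000 to 5000 bp and 53.2% against 43.7% from 5000 bp.

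The scores of matched isolated clusters ran from 0.0053 to 3.50 in replicate 1 and from 0.027 to 3.46 in replicate 2. They differed by a median of 0.08 between the replicates, against 0.08 in the other clusters, with an SD of the difference of 0.145 in isolated and 0.138 in other clusters. Replicate 2 was the higher one in 179 of the 317. Pearson's r across matched clusters was 0.982 in isolated and 0.981 in other clusters, which describes the lists only, since the clusters of a replicate come from one library. The largest difference was on 2L from 20309517 to 20312328, with 1.92 in replicate 1 and 2.38 in replicate 2. Isolated and other clusters were therefore scored with a similar spread, while the edges differed less between replicates in the isolated group. The edges were not compared within score classes. From 2000 to 3000 bp isolated clusters also had the higher median replicate score, 1.18 against 0.86. Whether the edge difference goes with score was not tested.

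**Figure D4:**
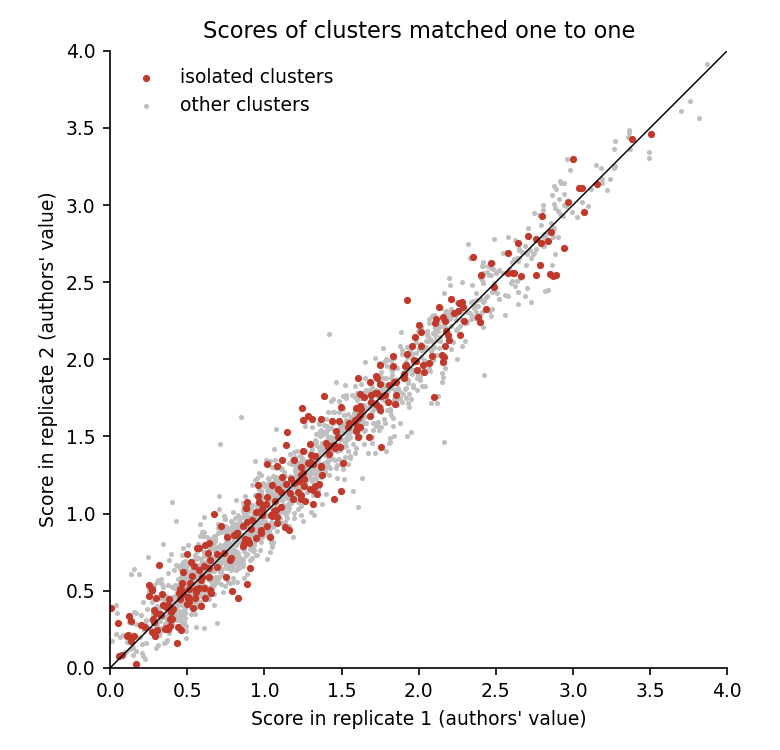
Score in replicate 2 against score in replicate 1 (authors' values) for clusters matched one to one, with 317 isolated clusters in red and 1707 others in grey; the line marks equal scores. The isolated clusters follow the line over the whole range, with a largest difference of 0.46.

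The isolation itself was also looked up in each library. The combined set comes from these libraries, so the shares are a description and not an independent check. Over the whole series, 28 of 5207 clusters of replicate 1 and 39 of 5190 of replicate 2 overlapped no combined cluster. Counting all pieces of a member as one, 337 of 340 isolated clusters had 15 kb or more free on both sides in replicate 1 (99.1%) and 332 of 339 in replicate 2 (97.9%). Of the 331 in both, 324 were isolated in both libraries, which left 7. Each of the 7 had a region of significant depletion of the combined set inside its flanking 15 kb, and no other isolated cluster did. These depleted regions numbered 6, one of them shared by 2 members on 2L. All 6 overlapped an enriched cluster in at least one replicate, 2 of them in both. Their combined scores lay between -0.17 and -0.0041, and the enriched replicate clusters at these places scored at most 0.05 in replicate 1 and 0.11 in replicate 2. One of the 6, on 3L from 10350223 to 10352057, was listed as depleted in replicate 1 and as enriched in replicate 2. Depleted regions stood in the flanks of 1.84% of isolated and 1.97% of other clusters.

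Isolated clusters were spread over the whole length of the arms. In 10 equal bins of each arm, counted from the telomeric end, they made up between 10.4% and 20.6% of the clusters under 10 kb. The highest share was in bin 6, with 51 isolated and 196 other clusters (20.6%, 95% exact interval 15.8 to 26.2), and the lowest in bin 4, with 33 and 283 (10.4%, 7.30 to 14.4). On 2L bin 6 held 22 isolated and 67 other clusters, and bin 7 of that arm held 13 isolated and 27 others. On 3L bin 6 held 15 isolated and 55 others, and on 3R it held 14 and 74. Support in both replicates ranged from 80.6% of isolated clusters in bin 9 to 95.3% in bin 3.

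**Figure D5:**
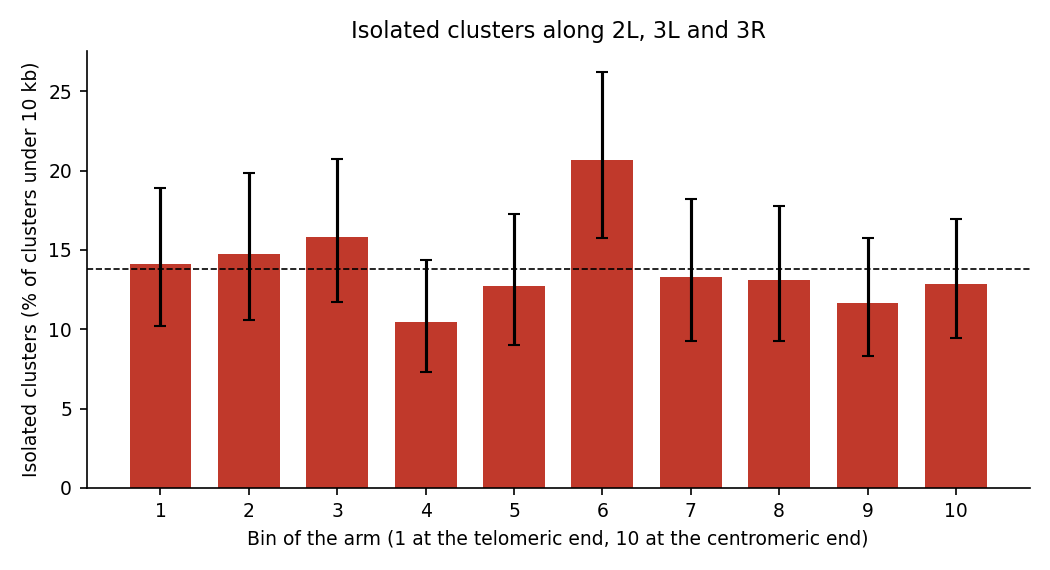
Isolated clusters as a share (in %) of the clusters under 10 kb in each of 10 equal bins of the arms 2L, 3L and 3R, pooled over the arms, from the telomeric to the centromeric end; error bars are 95% exact intervals and the dashed line is the share over all bins, 13.8%. Bin 6 stands highest at 20.6% and bin 4 lowest at 10.4%.

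A free stretch of 15 kb or more counts for the clusters on both of its sides, so the rule favours adjacent members, and their order is given as a description. Along the arm, the isolated clusters fell into 228 runs, of which 130 were single clusters, and 250 of the 380 (65.8%) stood in a run of 2 or more. The nearest neighbour was itself isolated for 161 of them (42.4%). It was a broad domain of 10 kb or more for 28 isolated clusters (7.37%), against 11.3% of the other clusters. The rule itself keeps such domains at least 15 kb from an isolated cluster, so the distances that follow are a description. The nearest domain lay at a median of 103606 bp from an isolated cluster and 49917 bp from the others, and 51.3% of isolated and 32.3% of other clusters had none within 100 kb.

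The longest run held 7 isolated clusters on 3L, from 9960550 to 10510871, over 550.3 kb. They covered 23.4 kb of it and were separated by stretches of 30.4 to 248.4 kb. All 7 were in both replicates, but the cluster from 10356056 to 10358249 had another cluster 4093 bp away in replicate 2. The first and widest, 8227 bp, scored 1.45 in replicate 1 and 1.44 in replicate 2. The highest combined score of the run was that of the cluster from 10356056, with 1.480 and 1.495 in replicates 1 and 2, and the lowest combined score that of the cluster from 10455026 to 10457044, with 0.59 and 0.40. Their combined scores were 1.48 and 0.48, although their widths, 2194 and 2019 bp, were alike.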

How the data were processed

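ChIP-seq regions of 2 Ser2P ChIP libraries and of the series as a whole were used. The submitters' processing notes name Bowtie 0.12.7 as the aligner, and the build is FlyBase release 5, per the file headers. The deposited score is the authors' value per region; no header or label used here gives its scale, the caller, the threshold, the use of the input or how replicates were combined.

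From these regions, distances, widths, overlaps (at least 1 bp) and 95% exact (Clopper-Pearson) intervals were computed in Python 3.11.15 with numpy 2.4.6, scipy 1.17.1 and pandas 2.3.3; figures used matplotlib 3.10.9. The functions that select clusters and find overlaps were tested on simulated data. There, 15 of 15 planted quantities in 3 simulated sets were recovered exactly, partial overlaps and split clusters included. The simulated one-to-one count did not check whether a replicate cluster overlapped another combined cluster as well. Groups came from the sample titles. No test was made, because start, end and score of the combined set chose or accompany the members and both replicates belong to that set. The members, classes and named regions (highest score, largest distance, widest, unsupported, nearest to the limits) were chosen with earlier results of these data known. The planned comparison with genes was not run, since the gene table describes release 6. Alternatives changed the distance, the width limit, the neighbours, the overlap, the arms and the replicate used.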

Additional observations from a re-analysis of the deposited data

How the results depend on the processing

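Differences are isolated minus other clusters. For support, score and width, a change is counted where it exceeds the SD between replicates (1.43 percentage points for support, 0.018 for score, 21.2 bp for width). The number of isolated clusters was judged by its fold change instead. No difference changed sign: support stayed higher in isolated clusters in 15 of 15 alternatives, the median score in 15 of 15, and the median width stayed lower in 12 of 12. The number of isolated clusters was 163 at a distance of 30 kb, 248 without 3L and 251 without 3R. For the better-scoring 50%, the rule was applied anew without the weaker neighbours, which gave 438 isolated and 805 other clusters. The support difference was 5.37 points at 20 kb, 4.42 at 30 kb, 11.8 with a width limit of 5000 bp, 5.18 when only replicate-supported neighbours counted, 2.50 in the better-scoring 50% of the combined set, and 10.4 without 3R. From one replicate alone it was 5.39 to 7.41 points.

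The difference in median score was 0.15 at 10 kb, 0.26 at 20 kb, 0.31 with the width limit of 5000 bp and 0.15 with supported neighbours. It was 0.061 in the better-scoring 50%, 0.21 without 2L, 0.14 without 3L and 0.22 without 3R. The median score per kb of width, a different unit that was not set against the SD, was 0.31 in isolated and 0.24 in other clusters, a difference of 0.070. The values that follow are again in the authors' score. From one replicate alone it was 0.11 to 0.14. The rule applied to one replicate's own set gave 394 isolated clusters in each. Of these, 323 in replicate 1 and 325 in replicate 2 overlapped an isolated cluster of the combined set, so the membership was not the same. The difference in median width was -413 bp at 20 kb, -401 at 30 kb, -48 with the limit of 5000 bp, -427 with supported neighbours, -491 with clusters of 1300 bp or more, -614 in the better-scoring 50%, -288 without 2L, -432.5 without 3L and -331 without 3R. Restricted to clusters in both replicates, an alternative chosen after seeing the data, the differences were 0.13 in score and -762 bp in width. The support gap between the farthest and nearest distance class was 24.2 points by the farther side, against 11.3 by the nearer. By the farther side the classes held 1408 (84.0%) and 127 clusters (59.8%), and the 1408 were not only isolated clusters. By the nearer side they held 380 and 906, so the gaps compare unlike sets. The cause of these changes was not tested. No paired analysis was possible because the inputs that share the replicate numbers have no regions here and no result comes from a test. Without read counts, depth sets an unknown limit on weak clusters.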
